A study of Mus musculus with 6 samples.

Results

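The vault is a large ribonucleoprotein particle of the cytoplasm, and its protein components are encoded by *Mvp*, *Parp4* and *Tep1*. These 3 genes, of the 55341 genes in the deposited table of read counts, were selected by their gene symbol and compared in aortas of mice with and without miRNA-26b. The set was proposed with the difference of *Tep1* between these libraries already known, so the values of the 3 genes between the genotypes are given as a description without a test. *Tep1* was lower in each miRNA-26b-/- library than in any miRNA-26b+/+ library, *Mvp* was higher in each of them, and the levels of *Parp4* overlapped.

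RNA was sequenced from the aortic arch and thoracic aorta of 3 miRNA-26b-/- mice (libraries M2626, M2627 and M2628) and 3 miRNA-26b+/+ mice (libraries M2629, M2630 and M2631), with 1 library per mouse. The labels give the genotypes as KO miRNA26B and naive and the strain as C57BL/6NCrl. All animals were 8 weeks old, had been fed chow, and were perfused before the vessels were removed. The deleted hairpin lies in an intron of *Ctdsp1*. The allele was made in 129/Sv embryonic stem cells, floxed, and deleted by CreERT2 after tamoxifen, and the Cre was later bred out. The study's results describe the strains first bred from the chimeras as mixed, 129/Sv-C57BL/6, whereas its methods give the background of the animals as C57BL/6. Any 129/Sv sequence left in these mice was not tested.

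The libraries held between 25706728 and 33345037 counts, and a count of 3, taken as the limit of detection for counting error only, corresponded to 0.0900 to 0.117 CPM (read counts scaled to the total of the library). *Mir26b* itself was at 0 counts in every library except M2630, a miRNA-26b+/+ library with 20, and libraries of long RNA do not measure it well enough to check the genotype. The labels name endothelial cells, whereas the summed level of 5 smooth muscle markers was 30718 to 40142 CPM and that of 5 endothelial markers was 382 to 1545 CPM, so that the labelled cell type was not the most abundant one by its markers. The endothelial sum was 382 CPM in M2626 and 421 CPM in M2627, both miRNA-26b-/-, but 1545 CPM in M2628. It was 1069 to 1427 CPM in the miRNA-26b+/+ libraries. Macrophage markers were also lowest in M2626 and M2627, at 72.6 and 112 CPM against 171 to 301 CPM in the other libraries. Of 3 lymphocyte markers, *Cd3e* had 0 counts in all 6 libraries and the sum reached at most 2.53 CPM. Markers of Schwann cells summed to 71.1 to 141 CPM in miRNA-26b-/- and 16.8 to 45.6 CPM in miRNA-26b+/+ libraries, and 3 of 4 had an unadjusted p under 0.05 in edgeR's quasi-likelihood test. Markers of skeletal muscle summed to 8.49 to 35.6 CPM and 0.646 to 3.31 CPM, with 3 of 3 under that threshold. Of all 16017 genes tested, 6.47% were under it. Markers of sympathetic neurons reached 164 CPM in M2627 against 6.49 to 38.4 CPM in the other libraries. The part of these tissues in the levels of the vault genes was not tested. In such bulk RNA, fewer cells of one type and less RNA per cell cannot be told apart.

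Vaults are barrel-shaped shells built from many copies of the major vault protein, MVP, which alone is able to assemble into the shell. Inside the shell sit PARP4, a member of the poly(ADP-ribose) polymerase family also called vault PARP, and TEP1, a large protein with WD repeats that was first described as a protein bound to telomerase RNA. TEP1 holds the short untranslated vault RNAs in the particle and is needed for their stability. Vaults have been linked to transport, signalling and drug resistance, but mice without *Mvp*, *Parp4* or *Tep1* are viable, and a single function has not been settled.

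The miRNA that was deleted exists as a 5p and a 3p strand, and both are shown because they define which bases of a transcript could pair with the seed. In the RefSeq annotation of GRCm38.p6 both lie on the forward strand, the 5p strand at chr1:74394324-74394344 and the 3p strand at chr1:74394360-74394381. The capitals mark the seed, bases 2 to 8 counted from the 5′ end.
mmu-miR-26b-5p: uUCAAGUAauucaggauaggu
mmu-miR-26b-3p: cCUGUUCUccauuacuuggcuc

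The 3 vault genes were searched for the complement of these seeds on the transcript strand. In the longest annotated 3′ untranslated region of *Tep1* (195 bases), *Mvp* (123 bases) and *Parp4* (364 bases) there were 0 matches to TACTTGA or ACTTGAA for the 5p strand and 0 matches to AGAACAG or GAACAGA for the 3p strand. The 8-base sites TACTTGAA and AGAACAGA contain these letters and were likewise not found. The region of *Tep1* belongs to a short transcript of 434 bases. The longest coding transcript of *Tep1* has a 3′ untranslated region of 109 bases, which was searched only for TACTTGA and AGAACAG. Among 21005 genes, 9.67% of the longest 3′ untranslated regions held TACTTGA, 14.1% ACTTGAA, 14.3% AGAACAG and 12.2% GAACAGA. These shares cover regions of any length and were not matched to the short regions of the vault genes. A short region has few places for a match, so nothing is read from the 0 matches.

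In the whole length of the longest coding transcript, that of *Tep1* (8171 bases) held neither TACTTGA nor AGAACAG. The transcript of *Mvp* held 1 match to the 3p seed, in the coding sequence on the reverse strand at chr7:127001858-127001880. The transcript of *Parp4* held 1 match to the 5p seed, at chr14:56610809-56610831, and 1 to the 3p seed, at chr14:56598367-56598389, both in the coding sequence on the forward strand. Of 21877 genes, 14.6% had TACTTGA and 31.7% had AGAACAG somewhere in this transcript, again without matching for length. The stretches around the 3 matches are shown with the matched letters in capitals, since they are the only places in these transcripts where the 7 bases opposite a seed were found. A match of letters is not evidence of binding.
*Mvp*, 3p match: gctggaccAGAACAGtaatgtgt
*Parp4*, 5p match: atggtgctTACTTGAtggaccag
*Parp4*, 3p match: gtgtacagAGAACAGatgttgga

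*Mvp* (ENSMUSG00000030681.18) encodes the shell protein and lies on the reverse strand of GRCm38 at chr7:126986860-127014621. It had 79.4 CPM in M2626, 83.2 CPM in M2627 and 94.3 CPM in M2628, the miRNA-26b-/- libraries. Among miRNA-26b+/+ mice, M2629, M2630 and M2631 had 73.7, 72.4 and 49.8 CPM. All miRNA-26b-/- libraries were above all miRNA-26b+/+ libraries, and M2631 stood lowest. The group means were 85.7 ± 7.72 and 65.3 ± 13.5 CPM (SD, n = 3 each), a fitted log2 fold change of 0.38 with a standard error of 0.19. Without M2631 the log2 fold change of *Mvp* was 0.21. Of the 16017 genes tested, 6.13% had groups that did not overlap and were higher in miRNA-26b-/- mice, and nothing about *Mvp* is read from this share, as the choice of the gene used the same comparison.

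*Parp4* (ENSMUSG00000054509.7), which encodes the poly(ADP-ribose) polymerase of the particle, lies on the forward strand at chr14:56575619-56659794. Its levels were 30.5, 22.5 and 25.5 CPM in M2626, M2627 and M2628. In M2629, M2630 and M2631 they were 38.7, 22.4 and 31.7 CPM. The groups overlapped, since M2630 had the lowest value of the 6 and M2629 the highest, and both are miRNA-26b+/+. The means of the miRNA-26b-/- and miRNA-26b+/+ groups were 26.2 ± 4.05 and 30.9 ± 8.15 CPM (SD, n = 3 each), with a log2 fold change of -0.27 and a standard error of 0.26. This value was -0.10 without M2629, -0.16 without M2627 and -0.44 without M2630.

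*Tep1* (ENSMUSG00000006281.8), the gene of the protein that carries vault RNA, lies on the reverse strand of the same chromosome as *Parp4* at chr14:50824059-50870560. It is 5.71 Mb away from *Parp4*. Without miRNA-26b, M2626, M2627 and M2628 had 484, 775 and 548 counts, or 18.8, 23.2 and 19.6 CPM. With miRNA-26b, M2629, M2630 and M2631 had 1151, 1041 and 1600 counts, or 38.1, 37.4 and 51.9 CPM. The highest miRNA-26b-/- library lay below the lowest miRNA-26b+/+ library, and M2631, the library with the least *Mvp*, had the most *Tep1*. The means were 20.6 ± 2.35 and 42.5 ± 8.19 CPM (SD, n = 3 each), and the fitted log2 fold change was -1.06 with a standard error of 0.24. When 1 library was omitted at a time, the value ran from -1.16 without M2627 to -0.88 without M2631. Groups that did not overlap and were lower in miRNA-26b-/- mice were seen for 5.52% of the genes tested, and 4.61% had a log2 fold change of -1 or below. *Tep1* was singled out by this comparison, so that nothing is read from these shares either.

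**Figure D1:**
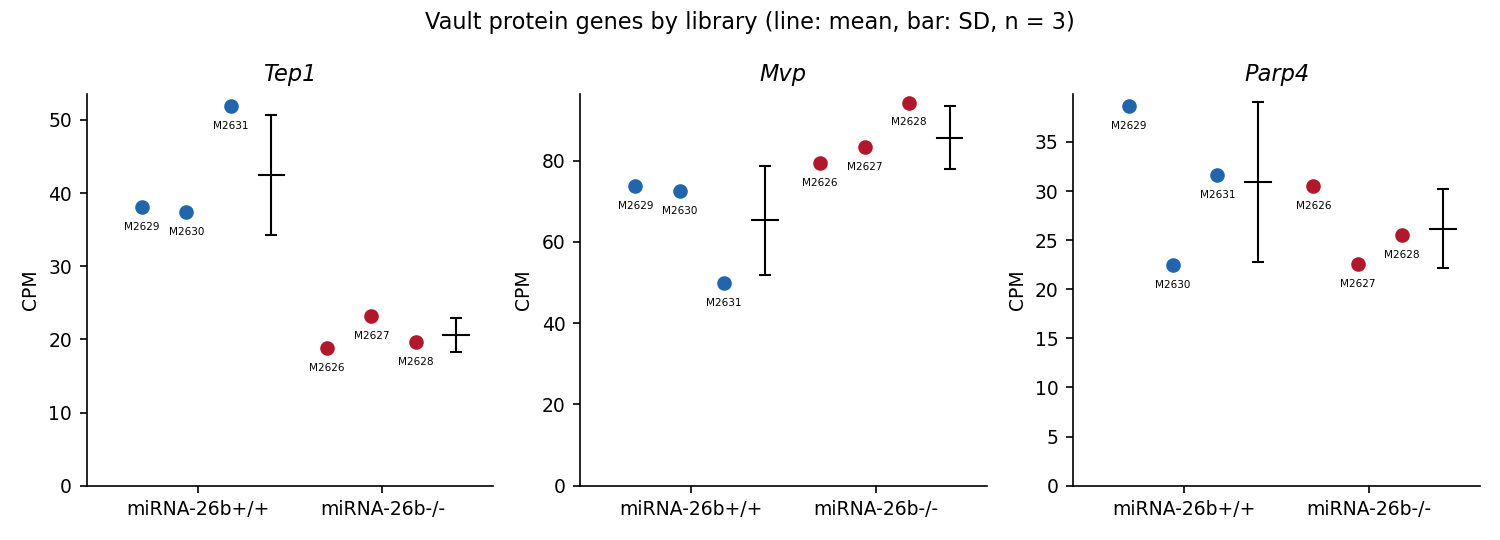
Level of *Tep1*, *Mvp* and *Parp4* in CPM (vertical axes, each from 0) in the 3 miRNA-26b+/+ (blue) and 3 miRNA-26b-/- libraries (red), each point a library with its name, with the group mean (line) and SD (bar). For *Tep1* the red points, 18.8 to 23.2 CPM, lie below the blue points, 37.4 to 51.9 CPM, for *Mvp* they lie above them, and for *Parp4* the points of the groups overlap.

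The reads of each vault gene can be shared with an overlapping gene, since a read was counted for every gene whose exons it covered and the strand was not used. *Tep1* shares 144 exon bases, 1.5% of its own, with *Gm26782*, an antisense gene on the forward strand at chr14:50870324-50880603 (ENSMUSG00000097431.2). The counts of *Gm26782* in M2626, M2627 and M2628 were 289, 455 and 382, and those in M2629, M2630 and M2631 were 293, 124 and 478, so that its groups overlapped. The fitted difference of *Gm26782* was 0.35 ± 0.42 (log2 fold change ± SE, edgeR's adjusted p = 0.934), with the sign opposite to that of *Tep1*. The shared bases are 3.52% of the exon bases of *Gm26782*. When every count of *Gm26782* was subtracted from *Tep1*, which also removes its reads outside the shared bases, the log2 fold change of *Tep1* was -2.08. *Mvp* shares 346 exon bases, 4.54% of its own, with *Pagr1b*, and *Parp4* shares 335, 5.13% of its own, with *Gm16573*. Subtracting the counts of *Pagr1b* from *Mvp* and of *Gm16573* from *Parp4* gave log2 fold changes of 0.38 and -0.30.

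To compare the genes within a library, independent of the scaling between libraries, the log2 ratio of their read counts was taken. The ratio of *Tep1* to *Mvp* was -2.08, -1.84 and -2.26 in M2626, M2627 and M2628. It was -0.95, -0.95 and 0.06 in M2629, M2630 and M2631. The ratios did not overlap. This had to follow, because the groups of *Tep1* and of *Mvp* were each separate and in opposite directions, so nothing further is read from it. M2631 was the sole library in which *Tep1* had more counts than *Mvp*. The means of -2.06 ± 0.21 and -0.62 ± 0.58 (SD, n = 3 each) differed by -1.45, to which the lower *Tep1* and the higher *Mvp* both contribute. The ratio of *Tep1* to *Parp4* was -0.70, 0.05 and -0.38 against -0.02, 0.74 and 0.71. These overlapped, because M2627 was above M2629, and the means of -0.34 ± 0.37 and 0.48 ± 0.43 differed by -0.82. For *Parp4* over *Mvp* the ratios were -1.38, -1.89 and -1.89 against -0.93, -1.69 and -0.65, which also overlapped, with a difference of the means of -0.63.

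**Figure D2:**
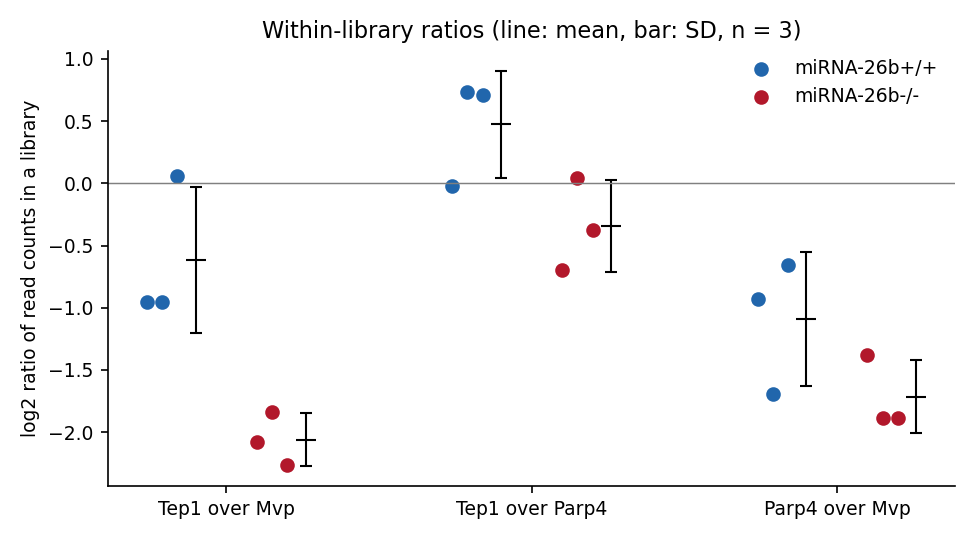
Log2 ratio of the read counts of pairs of vault genes within a library (vertical axis), with each point a library, blue for miRNA-26b+/+ and red for miRNA-26b-/-, beside the mean (line) and SD (bar) of 3. The groups are separate for *Tep1* over *Mvp* (means -0.62 and -2.06) and overlap for the other pairs. The separation follows from that of *Tep1* and *Mvp* taken singly.

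The stoichiometry of the transcripts was described as RPKM (CPM divided by the exon length in kilobases), using all annotated exon bases of a gene, 9568 for *Tep1*, 7627 for *Mvp* and 6534 for *Parp4*. *Mvp* had 9.90 ± 1.94 RPKM (SD, n = 6), *Parp4* 4.37 ± 0.967 RPKM and *Tep1* 3.29 ± 1.37 RPKM. By genotype, *Tep1* had 2.15 ± 0.246 RPKM without and 4.44 ± 0.856 RPKM with miRNA-26b (SD, n = 3 each), *Parp4* 4.01 ± 0.620 and 4.74 ± 1.25 RPKM and *Mvp* 11.2 ± 1.01 and 8.56 ± 1.76 RPKM. *Mvp* was the highest of the 3 genes in 6 of 6 libraries. It exceeded *Parp4* by 1.09 ± 0.48 and *Tep1* by 1.51 ± 0.79 (mean ± SD) on the scale of log2(RPKM + 0.5). In the exact permutation test of paired differences, two-sided, each of these had p = 0.0312, the smallest that 6 libraries can give, and an adjusted p = 0.0469 over the 3 pairs. The difference between *Mvp* and *Tep1* was smallest in M2631 at 0.25 and reached 2.33 in M2628, so the order held while the distance varied widely. It was larger in each miRNA-26b-/- library than in any miRNA-26b+/+ library. Tests that include *Tep1* take in the miRNA-26b-/- libraries, where it was already known to be low. They are therefore not independent of its choice, and the mean and SD over 6 libraries mix the genotypes.

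*Parp4* and *Tep1*, the components inside the shell, were next to each other in this order. *Parp4* was higher in 4 of 6 libraries, with a mean difference of 0.42 ± 0.50 on the log2(RPKM + 0.5) scale and a range from -0.16 to 1.07 (exact permutation test, two-sided, adjusted p = 0.125). The libraries in which *Tep1* was above *Parp4* were M2630 with 3.91 against 3.43 RPKM and M2631 with 5.43 against 4.85 RPKM, both miRNA-26b+/+. The choice of length changes the distances: with the longest coding transcript (8171 bases for *Tep1*, 2837 for *Mvp* and 6387 for *Parp4*), a choice made after seeing the data, *Mvp* exceeded *Parp4* by 2.44 and *Tep1* by 2.69. Much of the exon length of *Mvp* comes from a transcript with a retained intron of 4822 bases in all. Among the genes tested, the mean CPM of *Mvp* was above that of 83.6% of genes, that of *Tep1* above 64.7% and that of *Parp4* above 62.3%.

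**Figure D3:**
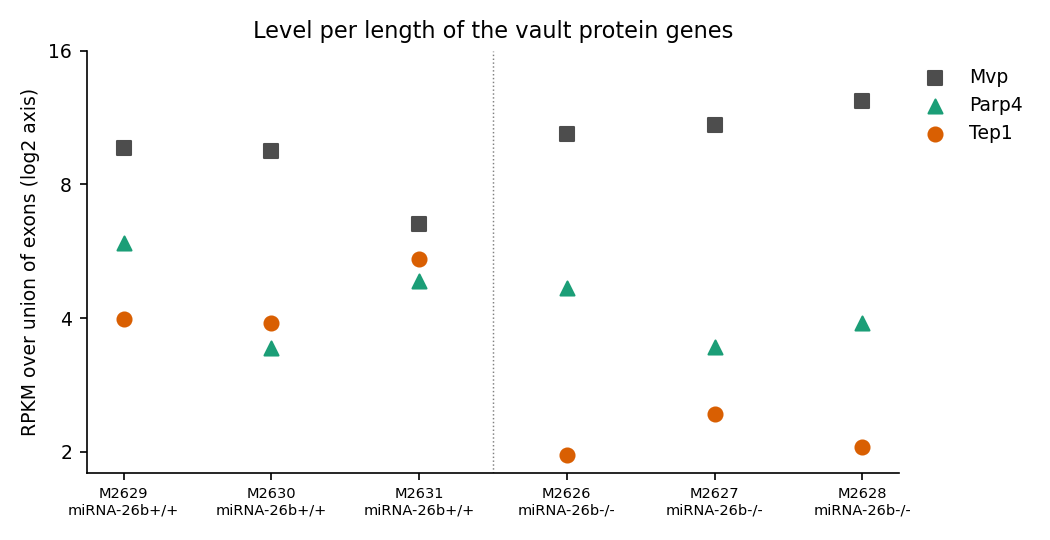
Level per length of *Mvp* (squares), *Parp4* (triangles) and *Tep1* (circles) in RPKM on a log2 axis, for each library, with miRNA-26b+/+ on the left and miRNA-26b-/- on the right of the dotted line. *Mvp* is highest in all 6 libraries, from 6.53 to 12.4 RPKM, and *Tep1* is above *Parp4* in M2630 and M2631 and below it in the other 4 libraries.

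Over the 6 libraries Pearson's r of log2(CPM + 0.5) was -0.86 between *Tep1* and *Mvp*, 0.34 between *Tep1* and *Parp4* and -0.38 between *Mvp* and *Parp4*. These are descriptions over 6 points that fall into 2 genotypes and share library and depth. Of 11679 other genes with a mean of at least 5 CPM, those with the pattern most like that of *Tep1* were *Gm9828* (r = 0.997), *Vps13b* (0.989), *Gm45213* (0.988), *Scaper* (0.985) and *Anln* (0.983). *Gm9828*, the nearest, had 6.77, 8.82 and 6.67 CPM in M2626, M2627 and M2628 and 14.2, 13.7 and 21.03 CPM in M2629, M2630 and M2631, so that M2631 was again the highest library. With r of -0.86 and 0.34, *Mvp* and *Parp4* could not be among these 5 genes, and nothing is read from their absence.

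The RNA that TEP1 binds and the proteins related to it in RNA binding were looked up next. The mouse vault RNA gene *Vaultrc5* had 0 counts in all 6 libraries, against the limit of 3 counts per library. Vault RNA is short and has no poly(A) tail, and these libraries were made from long RNA, so its level cannot be read from them. *Ro60*, listed under its older symbol *Trove2*, encodes an RNA-binding protein that shares the TROVE domain with TEP1. It averaged 57.8 ± 10.4 CPM without and 40.9 ± 9.41 CPM with miRNA-26b (n = 3 per genotype, SD), and the groups overlapped. The log2 fold change ± SE was 0.49 ± 0.22, with an unadjusted p = 0.0403 and an adjusted p = 0.75 from edgeR. *Ssb*, the gene of the La protein that binds the ends of vault RNA, had -0.12 ± 0.17 on the same scale (edgeR's adjusted p = 0.947).

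As TEP1 was named after telomerase, 12 genes of the telomerase particle and its assembly were examined. The RNA component *Terc* had 0 counts in all libraries, and the reverse transcriptase *Tert* had 4 counts in M2628 and 0 elsewhere, which leaves 10 genes tested. As with *Vaultrc5*, the 0 counts of *Terc* are not read as absence of this RNA from the aorta. Among the 10, 1 gene had an unadjusted p under 0.05, beside 6.47% of all genes tested. After adjustment 0 of the 10 passed with edgeR's quasi-likelihood test, DESeq2 or limma voom, beside 0.00624% of all genes with edgeR's test. This was *Naf1*, an assembly factor of box H/ACA particles, with 15.4 ± 4.58 CPM without and 24.1 ± 0.413 CPM with miRNA-26b (n = 3 per genotype, SD). The log2 fold change ± SE of *Naf1* was -0.66 ± 0.29 (edgeR's adjusted p = 0.745), and without any 1 library other than M2628 its unadjusted p-value was no longer under 0.05. The subunits *Dkc1* and *Nop10* had log2 fold changes of 0.06 and -0.17, and the ATPases *Ruvbl1* and *Ruvbl2* had 0.14 and 0.12. The median of the 10 genes was 0.06, with 6 above 0, beside a median of 0.01 over all genes tested.

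The family of *Parp4*, without *Parp4* itself, had 15 members tested. With an unadjusted p under 0.05, 3 of the 15 were lower in miRNA-26b-/- mice and 0 were higher, where 3.07% of all genes tested were lower and 3.4% higher at this threshold. After adjustment 0 passed with edgeR's quasi-likelihood test, DESeq2 or limma voom. *Zc3hav1*, an antiviral zinc finger protein without catalytic activity, averaged 26.6 ± 5.17 CPM without and 44.8 ± 10.7 CPM with miRNA-26b (n = 3 per genotype, SD), and its groups did not overlap. On the log2 scale this was -0.78 ± 0.25 (fold change ± SE, edgeR's adjusted p = 0.736). *Parp2* and *Parp3*, enzymes of DNA break repair, had log2 fold changes ± SE of -0.74 ± 0.33 (edgeR's adjusted p = 0.75) and -0.41 ± 0.19 (edgeR's adjusted p = 0.755), and the groups overlapped for *Parp2*.

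Of the most abundant other members, the tankyrases *Tnks2* and *Tnks* had log2 fold changes of -0.15 and -0.27, *Parp1*, the main nuclear enzyme, -0.13, and *Parp14* 0.17. The median of the 15 was -0.13, with 10 below 0, beside a median of 0.01 and 7789 of 16017 below 0 among all genes tested. The value of *Parp4*, -0.27, lay within this family's range from -0.78 to 0.64. The count of 3 was 1 without M2627, 1 without M2628 and 0 without M2631, and 1 with DESeq2.

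Partners of MVP were described from a list of 6 proteins known to bind it. In edgeR's quasi-likelihood test, 0 of the 6 had an unadjusted p under 0.05, beside 6.47% of all genes tested, and the count was also 0 with DESeq2, limma voom and the likelihood ratio test. *Mvp* was higher by 0.38 on the log2 scale, and the 6 genes had log2 fold changes above 0, with a median of 0.17. Of the 16017 genes tested, 8228 were above 0, with a median of 0.01. Whether the partners move with *Mvp* was not tested. The ubiquitin ligase *Cop1* had 0.38 ± 0.24 (SE), the kinase *Src* 0.27 ± 0.19 and the kinase *Mapk3* 0.22 ± 0.16, and for these 3 the groups did not overlap, which 6.13% of all genes tested showed in this direction. The phosphatase *Ptpn11* had 0.12.

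**Figure D4:**
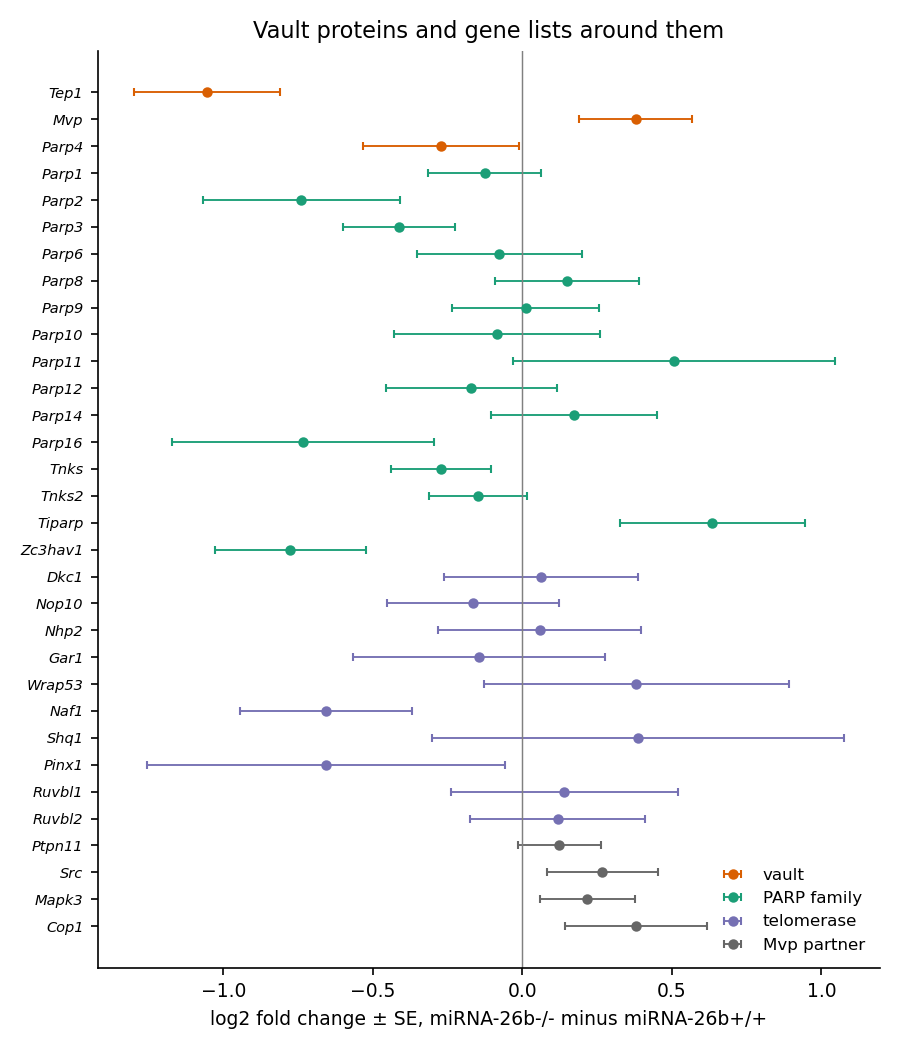
Log2 fold change of miRNA-26b-/- against miRNA-26b+/+ mice (horizontal axis, bar: standard error) for the vault genes, the other members of the PARP family, the telomerase genes tested and 4 of the partners of MVP. *Tep1* at -1.06 has the lowest value of the genes drawn, *Mvp* is at 0.38 and *Parp4* at -0.27.

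Because *Mvp* is known to be induced by interferon, 16 interferon response genes were examined, of which 14 were tested. With an unadjusted p under 0.05, 2 of the 14 were higher and 1 was lower in miRNA-26b-/- mice, beside 3.4% higher and 3.07% lower among all genes tested, and 0 passed after adjustment with edgeR's quasi-likelihood test, DESeq2 or limma voom. The GTPase *Gbp2* had 46.7 ± 12.1 against 27.7 ± 10.1 CPM (SD, n = 3 each), with overlapping groups and a difference of 0.73 ± 0.28 (log2 fold change ± SE, edgeR's adjusted p = 0.736). *Mx1*, another GTPase, had 87 counts in M2627 and 48 in M2628 and was at 0 in M2626 and in the 3 miRNA-26b+/+ libraries. *Usp18*, which removes ISG15 from proteins, had -1.49 ± 0.69 on this scale (edgeR's adjusted p = 0.769). The transcription factors *Irf1* and *Irf9* had -0.57 and -0.24, and the membrane protein *Bst2* had -0.28. The median of the 14 was -0.26, with 6 above 0 and 8 below. The count of 3 was 1 without M2627, M2628 or M2631, 0 without M2630 and 4 without M2626.

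Last, the genes beside *Tep1* on the chromosome were compared with it. Within 500 kb of *Tep1* the table lists 62 other genes, of which 15 were tested, and 1 of them had an unadjusted p under 0.05. This share of 6.67% is close to the 6.47% of all genes tested. The gene was *Parp2*, which lies 2.76 kb from *Tep1*. It had 15.1, 8.997 and 11.6 CPM in M2626, M2627 and M2628 and 22.8, 14.8 and 20.1 CPM in M2629, M2630 and M2631, so that M2626 lay just above M2630. Without M2627, M2628 or M2631 the count of neighbours was 0. The 15 log2 fold changes had a median of 0.08, with 9 above 0 and 6 below, while that of *Tep1* was -1.06.

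**Figure D5:**
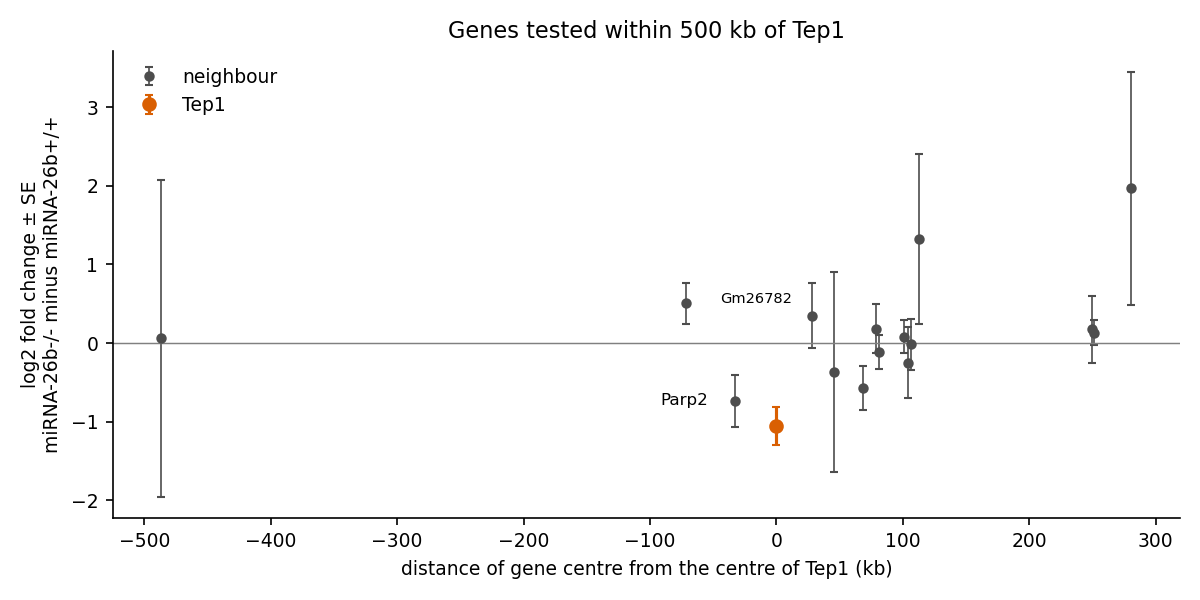
Log2 fold change of miRNA-26b-/- against miRNA-26b+/+ mice (vertical axis, bar: standard error) for *Tep1* (orange) and the 15 genes tested within 500 kb of it (grey), by the distance of the gene's centre from that of *Tep1* in kb. *Parp2* at -0.74 is the neighbour with the lowest value, and 9 of the 15 lie above 0.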

How the data were processed

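Reads had been aligned by STAR to GRCm38 (mm10), and the authors deposited raw read counts per gene from featureCounts 1.6.4, which per the file header counted exons of each gene name with release M21 of GENCODE, without strand and with reads counted for every overlapping gene. The paper's methods name a later release. A second deposited table holds the same counts, log2 CPM and the authors' fold changes and p-values, and was not used. Labels gave the groups. The 16017 genes with over 1 CPM in at least 2 libraries and 2 or more counts in all were fitted with edgeR 4.0.16 in R 4.3.3 (TMM, quasi-likelihood test, prior count 0.125), with Benjamini-Hochberg adjustment over all genes tested. TMM factors ran from 0.982 to 1.015. CPM values are counts scaled to the library total. The procedure was tested on simulated counts. Replicates are mice. Alternatives were DESeq2 1.42.0, limma voom (3.58.1), the likelihood ratio test, other normalizations, filters, lengths and pseudocounts, subtraction of overlapping genes, and leaving out each library. The earlier quasi-likelihood method and the longest coding transcript were added after seeing the data.

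The members and lists were chosen with earlier results of these data known. Genes named are the 3 vault genes, *Vaultrc5*, *Ro60*, *Ssb*, genes overlapping a vault gene, list members and neighbours with an unadjusted p-value under 0.05, up to 4 further members of each list by mean CPM, and the 5 genes most like *Tep1*. *Src*, *Cop1*, *Terc*, *Tert* and *Mir26b* were named after their values were seen. The values of some list members are not reported here.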

Additional observations from a re-analysis of the deposited data

How the results depend on the processing

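The log2 fold change of *Tep1* ran from -1.16 to -0.88 with each library left out in turn, that of *Mvp* from 0.21 to 0.47 and that of *Parp4* from -0.44 to -0.10, and none of the alternatives run changed a sign. Subtracting all counts of *Gm26782*, of whose exon bases only 3.52% are shared with *Tep1*, gave -2.08 for *Tep1*. With 5 libraries the level per length of *Mvp* exceeded *Parp4* by 1.002 to 1.23 and *Tep1* by 1.34 to 1.76 on the log2(RPKM + 0.5) scale. That of *Parp4* exceeded *Tep1* by 0.28 to 0.53 on this scale. Both differences of *Mvp* had an adjusted p = 0.0938 (exact permutation test). Their unadjusted p-values were the smallest that 5 libraries can give. The number of genes with an adjusted p-value under 0.05 was 57 with DESeq2, 19 with the likelihood ratio test, 3 with limma voom, 0 with the earlier quasi-likelihood method and 0 to 82 with a library left out, and that under an unadjusted 0.05 was 686 (without M2631) to 1692 (without M2628); the causes were not tested. With DESeq2 the counts at an unadjusted p-value under 0.05 were 0 telomerase genes, 1 PARP gene and 0 neighbours of *Tep1*. With a library left out they were 0 to 1, 0 to 3 and 0 to 1, with 0 to 4 interferon genes and 0 to 0 partners of MVP. Over all alternatives 130 values were labelled the same, 29 moved and 12 weaker. A count of genes was the same within a set ratio of the first count, a log2 fold change within the spread of the groups. A difference in level per length was the same if its adjusted p-value stayed on the same side of 0.05. The 12 were the differences of *Mvp* with a library left out, whose adjusted p-values rose above 0.05.

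With 3 mice a group the precision rests on the spread between mice, and intervals from counting error would understate it. No paired analysis was possible because the labels carry no replicate numbers that groups share.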
